A study of Mus musculus with 5 samples.

Results

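Mast cell transcripts were measured in cultures of mouse peritoneal macrophages, as 10 genes chosen by symbol out of 38463 in the table. The genes are Cpa3, Tpsb2, Tpsab1, Cma1, Mcpt4, Hdc, Kit, Ms4a2, Fcer1a and Gata2, and all 10 were found. Messenger RNA came from macrophages of wild-type mice, labelled strain C7/BL6 (3 libraries), and from LysMCre-Nrp1fl/fl mice, labelled Nrp1-/- and here called knockout (2 libraries), in which Cre recombinase driven by the lysozyme M promoter acts on floxed Nrp1 in myeloid cells. The wild-type label names neither Cre nor a floxed allele, and both groups had the same medium with 10% fetal bovine serum. The labels give no age, no sex and no number of animals, and do not say whether the libraries of a group came from separate mice, so p-values measure the spread between these samples, which may be technical.

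Mast cells are tissue-resident immune cells that store histamine and serine proteases in granules and release them when IgE on their surface receptor is crosslinked. They need the receptor tyrosine kinase KIT and its ligand, stem cell factor, for survival. The mouse peritoneal cavity holds mast cells of the connective tissue type beside its resident macrophages, and such cells carry tryptase, chymase and carboxypeptidase A3 in their granules. In bulk RNA, fewer mast cells and less of a transcript in each of them cannot be told apart.

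Levels are FPKM, read fragments scaled to transcript length and to the number of mapped reads. Library sums ran from 539101 to 629135 FPKM, with wild-type replicate 3 at the top, and the sequencing depth is unknown. Wild-type replicate 3 stood apart from the rest, with Pearson's r across tested genes of 0.929 to 0.938 against 0.966 to 0.972 among the other 4 libraries. Nrp1, the targeted gene, read 24.3, 19.0 and 11.5 FPKM across wild-type replicates 1, 2 and 3 against 7.63 and 7.70 FPKM for the knockouts, and did not pass the test. Lyz2, the gene whose promoter drives Cre, was listed at 0 in all 3 wild-type libraries and at 53.0 and 64.3 FPKM in the knockouts. All 10 macrophage markers were detected, among them Emr1, a surface antigen of mature macrophages, and Csf1r, the receptor of macrophage colony-stimulating factor. None of the 10 mast cell genes was in a row displaced in wild-type replicate 3, and none was listed at 0 in any library.

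The tryptase genes are neighbours on chromosome 17, 20742 bases apart, and their coding sequences are alike in part. Whether reads were divided between them was not tested. Over 821 aligned coding bases Tpsb2 and Tpsab1 were 76.0% identical, and the longest identical run was 39 bases. The aligned stretch around that run is shown from the GENCODE M21 coding sequences, with capitals at the 28 of 120 positions that differ (bases 159 to 278 of Tpsb2 and 261 to 380 of Tpsab1).
Tpsb2: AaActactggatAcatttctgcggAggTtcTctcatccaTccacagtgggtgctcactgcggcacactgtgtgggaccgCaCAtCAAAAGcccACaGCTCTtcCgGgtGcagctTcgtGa
Tpsab1: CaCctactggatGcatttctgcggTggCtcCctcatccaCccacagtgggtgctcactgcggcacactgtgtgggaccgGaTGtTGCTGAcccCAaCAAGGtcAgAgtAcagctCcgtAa
No stretch of 50 bases of either tryptase transcript occurred in a transcript of another gene, the other tryptase included. Cma1 shared 5.38% of its 50-base stretches with Gm48934, Mcpt4 shared 5.48% with Cma2 and 0.661% with Mcpt9, and Ms4a2 shared 2.69% with Ms4a4b, so levels of these 3 could include some reads of those genes. GENCODE lists Tpsab1 as protein coding while RefSeq lists it as a transcribed pseudogene. As background, C57BL/6 mice carry a splice-site change in Tpsab1 and make no mature tryptase from it.

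Promoters are shown because GATA2 and MITF are known regulators of mast cell genes. The part of these factors in the levels measured here was not tested. RefSeq promoters (GRCm38.p6) were at hand for 8 of the 10 genes, all but Tpsb2 and Tpsab1, and the 250 bases before each start were searched on both strands for the GATA motif (AGATAA or TGATAA) and for an E-box of the type bound by MITF (CACGTG or CATGTG). The GATA motif was found before Cpa3, Mcpt4, Fcer1a and Ms4a2, and the E-box before Fcer1a. Among all 32851 such windows 16.6% held the GATA motif and 17.6% the E-box. The 4 windows with a match follow, with capitals at the matches. A match on the opposite strand reads TTATCT for AGATAA and CACATG for CATGTG.
Cpa3, chr3:20242182-20242431, minus strand: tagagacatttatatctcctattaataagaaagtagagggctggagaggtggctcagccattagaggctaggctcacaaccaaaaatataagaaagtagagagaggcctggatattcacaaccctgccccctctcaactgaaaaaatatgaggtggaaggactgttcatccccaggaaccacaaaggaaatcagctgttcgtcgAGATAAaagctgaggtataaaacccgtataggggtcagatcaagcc
Mcpt4, chr14:56062311-56062560, minus strand: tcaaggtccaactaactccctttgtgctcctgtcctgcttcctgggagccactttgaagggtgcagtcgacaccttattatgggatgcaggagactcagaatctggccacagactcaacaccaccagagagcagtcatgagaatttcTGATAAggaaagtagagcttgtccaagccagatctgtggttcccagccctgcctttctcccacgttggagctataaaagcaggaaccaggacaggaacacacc
Fcer1a, chr1:173227230-173227479, minus strand: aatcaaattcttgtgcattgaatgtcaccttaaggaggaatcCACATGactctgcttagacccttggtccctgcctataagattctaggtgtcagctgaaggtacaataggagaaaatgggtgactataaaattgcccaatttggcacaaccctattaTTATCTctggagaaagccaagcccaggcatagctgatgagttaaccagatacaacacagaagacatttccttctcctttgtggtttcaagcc
Ms4a2, chr19:11623720-11623969, minus strand: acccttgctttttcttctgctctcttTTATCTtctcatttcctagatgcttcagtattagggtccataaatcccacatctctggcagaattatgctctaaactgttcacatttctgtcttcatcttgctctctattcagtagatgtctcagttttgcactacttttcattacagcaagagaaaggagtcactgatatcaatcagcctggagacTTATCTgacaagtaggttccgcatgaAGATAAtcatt
Ms4a2 had 3 GATA matches and the other genes 1 each. A match describes the letters of the window and is not evidence of binding.

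The 5 granule protease genes were all highest in wild-type replicate 3, and 2 of them, Tpsb2 and Cma1, had the highest levels of the 10 genes there. Tpsb2 encodes mouse mast cell protease 6, the main tryptase of connective tissue mast cells (chromosome 17, 25366305 to 25369098 of GRCm38, plus strand). Its level was 10.1, 14.5 and 144 FPKM across wild-type replicates 1, 2 and 3, then 21.9 and 12.3 FPKM across knockout replicates 1 and 2. Its level in wild-type replicate 3 was 6.57 times that of the next library and 9.79 times the mean of the other 4, and the 4 others lay within 10.1 to 21.9 FPKM. The groups overlapped, as they did for each of the genes that follow.

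Tpsab1, the second tryptase gene, encoding mouse mast cell protease 7 in strains that make it (chromosome 17, 25343245 to 25345562, minus strand), was 2.22, 1.80 and 6.41 FPKM across wild-type and 3.61 and 1.75 FPKM across knockout libraries. Wild-type replicate 3 was again highest, by 1.78 times the next library, knockout replicate 1.

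The chymases lie in the protease cluster of chromosome 14, 114953 bases apart. Cma1, mouse mast cell protease 5 (55941451 to 55944675, minus strand), was 2.76, 3.51 and 17.5 FPKM across wild-type and 5.61 and 2.71 FPKM across knockout libraries. Mcpt4, the chymase that cleaves substrates most like human chymase does (56059629 to 56062313, minus strand), was 0.758, 0.869 and 5.51 FPKM across wild-type and 2.65 and 0.586 FPKM across knockout libraries. Both were highest in wild-type replicate 3, by 3.12 and 2.08 times the next library, and both were second highest in knockout replicate 1. Mcpt4 differed most between the knockout libraries, by 4.52 times, against 2.07 times for Cma1.

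Cpa3 encodes carboxypeptidase A3, the exopeptidase that mast cells store with chymase (chromosome 3, 20215620 to 20242181, minus strand). It was 1.65, 2.13 and 6.71 FPKM across wild-type and 2.54 and 1.72 FPKM across knockout libraries, and so followed the order of Cma1 at the top, with wild-type replicate 3 at 2.64 times knockout replicate 1.

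Hdc, the enzyme that makes histamine from histidine (chromosome 2, 126593667 to 126619299, minus strand), had another order of libraries. It was 1.53, 5.17 and 8.08 FPKM across wild-type and 2.07 and 1.32 FPKM across knockout libraries. Wild-type replicate 2 was here second, at 3.39 times wild-type replicate 1. The knockout libraries stood on either side of wild-type replicate 1, so the groups overlapped.

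Receptor genes were low. Kit, the receptor of stem cell factor (chromosome 5, 75574916 to 75656722, plus strand), was 0.830, 0.695 and 1.89 FPKM across wild-type and 1.14 and 0.730 FPKM across knockout libraries. Fcer1a and Ms4a2 encode the alpha and beta chains of the high-affinity IgE receptor. Fcer1a (chromosome 1, 173221284 to 173227214, minus strand) was 0.153, 0.421 and 0.515 FPKM across wild-type and 0.157 and 0.113 FPKM across knockout libraries. Ms4a2 (chromosome 19, 11615523 to 11623719, minus strand) was 0.0773, 0.0482 and 0.193 FPKM across wild-type and 0.0791 and 0.0547 FPKM across knockout libraries. Kit and Ms4a2 shared with the proteases the order of wild-type replicate 3 first and knockout replicate 1 second, while Fcer1a shared the order of Hdc, with wild-type replicate 2 second.

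Gata2, a transcription factor needed for mast cell development and also active in blood progenitors (chromosome 6, 88193891 to 88207032, plus strand), varied least. It was 0.707, 0.964 and 1.12 FPKM across wild-type and 0.731 and 0.760 FPKM across knockout libraries, with wild-type replicate 3 at 1.16 times the next library. The order of its top libraries was that of Hdc and Fcer1a.

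**Figure D1:**
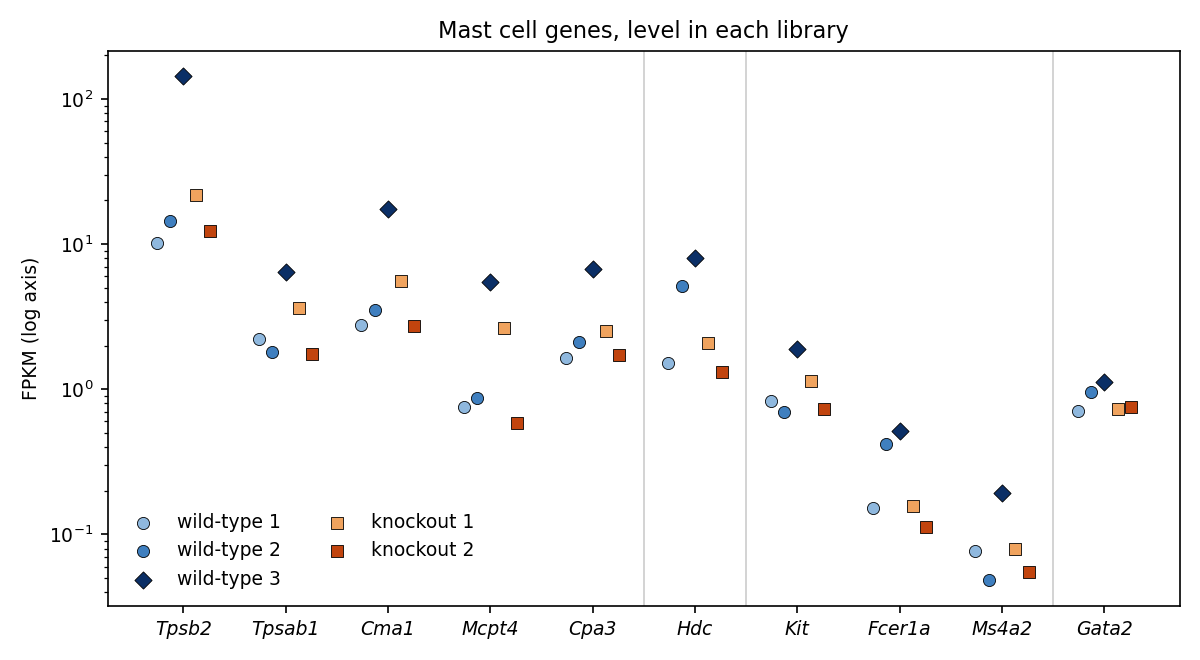
FPKM on a log axis for each of the 10 mast cell genes, with 1 point per library (circles and diamond wild-type, squares knockout) and vertical lines between proteases, histamine synthesis, receptors and transcription factor. The diamond of wild-type replicate 3 is the highest point for every gene, from 0.193 FPKM for Ms4a2 to 144 FPKM for Tpsb2.

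Ranked by the mean over the 4 libraries other than wild-type replicate 3, Tpsb2 led at 14.7 FPKM, followed by Cma1 at 3.65, Hdc at 2.52, Tpsab1 at 2.34 and Cpa3 at 2.01 FPKM. Over those libraries the ranges of neighbours in this order from Cma1 to Cpa3 overlapped, although the lowest Cma1 value, 2.71 FPKM, was above the highest of Cpa3, 2.54 FPKM. Mcpt4 at 1.22, Kit at 0.849 and Gata2 at 0.791 FPKM came next, again with overlapping ranges. Fcer1a at 0.211 FPKM lay below all of these libraries' Gata2 values, and Ms4a2 at 0.0648 FPKM lay below all of their Fcer1a values. The lowest Tpsb2 value, 10.1 FPKM, was above the highest value of every other member in those libraries, 5.61 FPKM of Cma1.

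Wild-type replicate 3 was the highest library for 10 of 10 mast cell genes. Over all 12214 genes tested (at least 1 FPKM in at least 2 libraries) it was the highest for 21.4%. For 5 of the 10 (Tpsb2, Cma1, Cpa3, Ms4a2 and Mcpt4) it was at least 2-fold over every other library, as it was for 1.04% of tested genes. Ms4a2, Fcer1a and Gata2 were too low to be among the tested genes, and over the 7 mast cell genes that were, the counts were 7 highest and 4 at least 2-fold. Of these 7, Mcpt4 and Kit reached 1 FPKM in wild-type replicate 3 and knockout replicate 1 alone. Their place among the tested genes thus rests in part on the library being scored. All 10 stayed highest in wild-type replicate 3 when libraries were rescaled to equal sums of FPKM, with 4 at least 2-fold. The shares of tested genes were then 14.6% and 0.483%. Under median-of-ratios scaling all 10 were highest and 8 at least 2-fold, and the shares of tested genes rose to 38.1% and 3.86%. Of a single library these are descriptions, with no test.

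Tested mast cell genes other than Kit were among the few that differed most between wild-type replicate 3 and the rest. On the log2(FPKM + 1) scale its difference from the mean of the other 4 libraries was 3.26 for Tpsb2, 2.03 for Cma1, 1.64 for Mcpt4, 1.48 for Hdc, 1.37 for Cpa3, 1.18 for Tpsab1 and 0.65 for Kit, while the median over all tested genes was -0.30. A difference at least as large was found for 7.02% of tested genes in the case of Kit, 1.28% in that of Tpsab1 and 0.0573% in that of Tpsb2. Among the 11829 tested genes with a transcript of at least 200 bases, a limit chosen after the values were seen, Tpsb2 had the largest difference, Cma1 ranked 5 and Mcpt4 ranked 14. Mcpt4 and Kit passed the filter only through wild-type replicate 3 and knockout replicate 1, so their places here rest in part on it. The 6 tested genes above Tpsb2 were small RNA genes of at most 85 bases, among them Mirlet7b and the mitochondrial tRNA genes mt-Tp, mt-Tv and mt-Ty.

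The difference of wild-type replicate 3 from the other libraries moved with transcript length and base composition. With tested genes cut into 4 equal bins by length, its median was -0.04 among the shortest and -0.64 among the longest, and with 4 bins by GC content it was -0.59 among the lowest and 0.07 among the highest. Tpsb2, Cma1 and Mcpt4 were in the shortest bin, where 0.232%, 0.795% and 1.09% of genes had a difference at least as large. Kit was in the longest, where that share was 1.43%, and by GC content its share was 3.48%. Cpa3, Tpsab1 and Hdc were in the bin above the shortest, with shares of 0.464%, 1.16% and 0.298%. By GC content Cpa3 was in the lowest bin (0.431% as large) and Tpsb2 in the highest (0.0994% as large). The part of length and GC content in the mast cell gene levels was not tested.

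**Figure D2:**
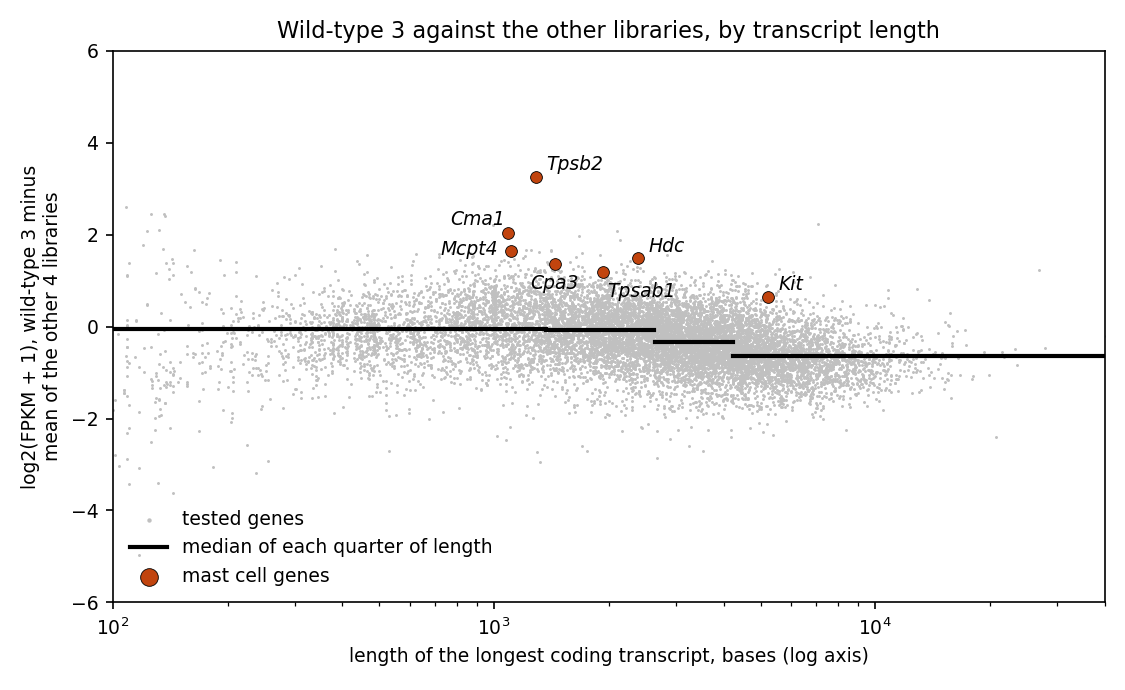
Difference in log2(FPKM + 1) between wild-type replicate 3 and the mean of the other 4 libraries (vertical axis) against the length of the longest coding transcript in bases (log axis), with grey points for tested genes, black lines for the median of each of 4 length bins and red points for the 7 tested mast cell genes. All 7 stand above the line of their bin, from 0.65 for Kit to 3.26 for Tpsb2, and 81 genes lie outside the plotted range.

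Summed over the 10 genes, mast cell transcripts came to 20.8, 30.1 and 192 FPKM across wild-type replicates 1, 2 and 3, then 40.5 and 22.1 FPKM across the knockouts. Wild-type replicate 3 had the highest sum and knockout replicate 1 the next, so the groups overlapped. Without Tpsb2 the sums were 10.7, 15.6, 47.9, 18.6 and 9.75 FPKM, and wild-type replicate 3 was still the highest.

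The genes did not keep 1 ratio to each other across libraries. Tpsb2 made up 48.7%, 48.1%, 54.1% and 55.9% of the sum in wild-type replicates 1 and 2 and knockout replicates 1 and 2, and 75.0% in wild-type replicate 3. For each 100 FPKM of Tpsb2 there were 27.2, 24.3, 12.1, 25.6 and 22.0 FPKM of Cma1 in wild-type replicates 1, 2 and 3 and knockout replicates 1 and 2. The same ratio for Cpa3 was 16.3, 14.8, 4.66, 11.6 and 14.0. Wild-type replicate 3 thus had the lowest amount of both per Tpsb2. Hdc made up 17.2% of the sum in wild-type replicate 2 and 4.21% to 7.34% in the others.

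**Figure D3:**
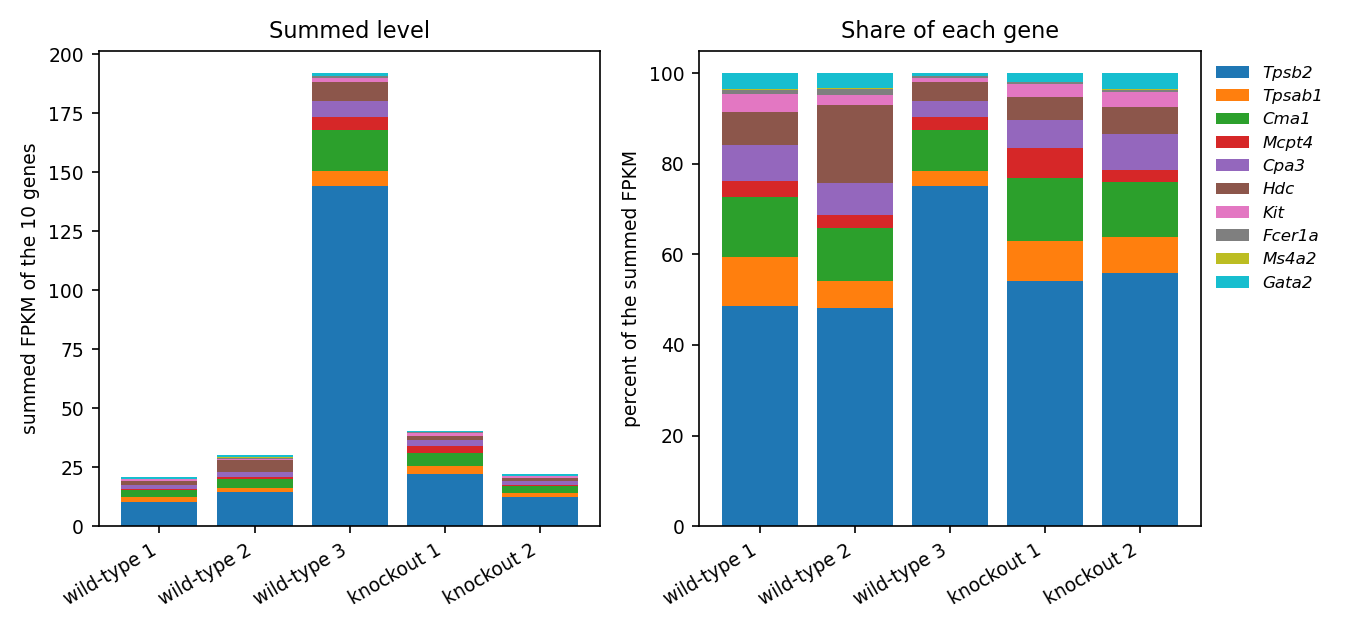
Stacked bars of the 10 mast cell genes in each library, as summed FPKM (left) and as percent of that sum (right), coloured by gene. The left bar of wild-type replicate 3 reaches 192 FPKM and the others 20.8 to 40.5, and Tpsb2 fills 75.0% of that library's right bar.

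Among the 4 remaining libraries knockout replicate 1 was the highest for 7 of the 10 genes (Tpsb2, Tpsab1, Cma1, Mcpt4, Cpa3, Kit and Ms4a2), where it was the highest for 23.7% of the 12133 genes tested over those libraries. Of the 7, Mcpt4, Kit and Ms4a2 were too low to be among those tested, and over the 5 mast cell genes that were, the count was 4. Its level was 3.05 times the next of the 4 for Mcpt4, 1.62 times for Tpsab1, 1.60 times for Cma1, 1.52 times for Tpsb2, 1.38 times for Kit, 1.19 times for Cpa3 and 1.02 times for Ms4a2. Wild-type replicate 2 was the highest of the 4 for Fcer1a, Hdc and Gata2, by 2.68 times for Fcer1a and 1.27 times for Gata2. Under both other scalings the counts were again 7 and 3, where the share over all genes was not computed.

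**Figure D4:**
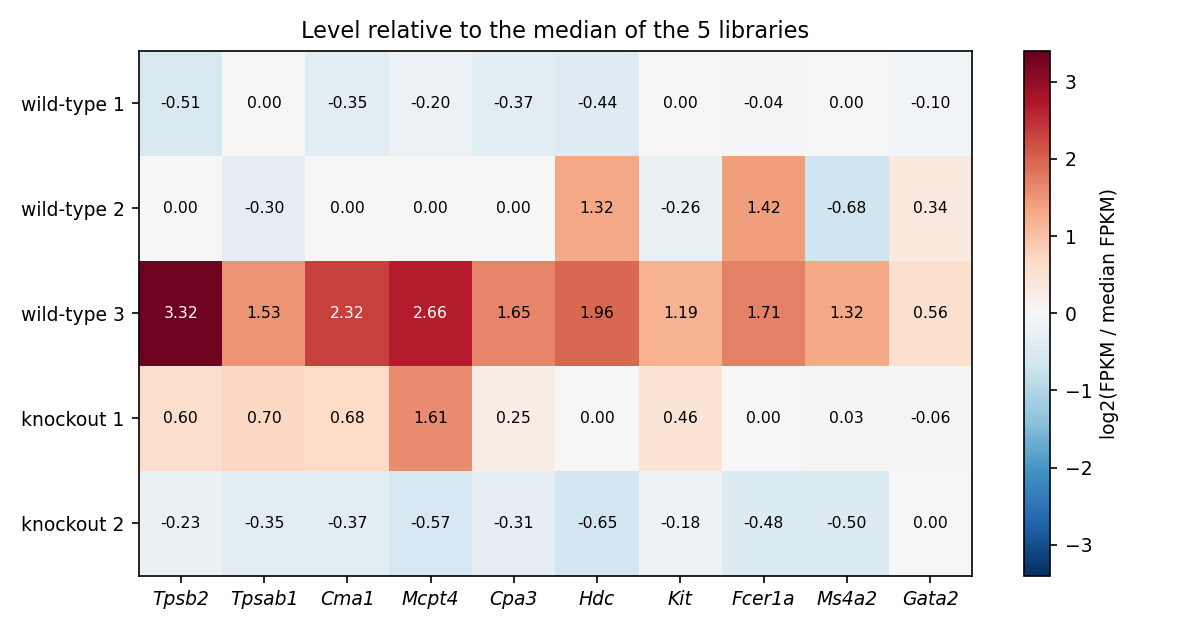
Level of each mast cell gene in each library as log2 of FPKM over the median of the 5 libraries, with red above and blue below the median. Wild-type replicate 3 is above the median for every gene (0.56 for Gata2 to 3.32 for Tpsb2). Knockout replicate 1 is above it for the 5 proteases (1.61 for Mcpt4), Kit (0.46) and Ms4a2 (0.03). Wild-type replicate 2 is above it for Hdc, Fcer1a and Gata2 (1.32, 1.42 and 0.34).

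The comparison the design implies is knockout against wild-type, and 0 of the 7 tested mast cell genes passed it. Over all 12214 genes 5 passed as higher and 2 as lower at a limma adjusted p below 0.05, which is 0.0573% called. An unadjusted p under 0.05 was given to 0 of the 7 genes and to 1.82% of all genes. For a single gene, an exact two-sided permutation test of 3 libraries against 2 cannot give a p below 0.2. The groups overlapped for all 10 genes, while they did not overlap for 20.8% of tested genes. Ms4a2, Fcer1a and Gata2 fell under the filter on low values, and Mcpt4 and Kit passed it through wild-type replicate 3 and knockout replicate 1 alone.

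The mean log2 level of all 7 tested genes was lower in the knockout, where 36.1% of tested genes lay lower. The median log2 fold change of the 7 was -0.37, and over all tested genes it was 0.11, a value that equal sums of FPKM moved to 0.17 and median-of-ratios scaling to 0.0027. The mean for Tpsb2 was 56.2 ± 76.1 FPKM over wild-type libraries (SD, n = 3) against 17.1 ± 6.77 over knockouts (SD, n = 2), and its log2 fold change was -0.74 ± 1.03 (SE, limma adjusted p = 0.927). For Hdc the means were 4.92 ± 3.28 against 1.70 ± 0.529 FPKM, and its log2 fold change of -0.96 ± 0.52 (SE, limma adjusted p = 0.927) was the largest of the 7. Cma1 had 7.92 ± 8.30 against 4.16 ± 2.05 FPKM, Cpa3 3.50 ± 2.79 against 2.13 ± 0.576 FPKM, and Mcpt4 2.38 ± 2.71 against 1.62 ± 1.46 FPKM. Tpsab1 and Kit had log2 fold changes of -0.19 ± 0.47 and -0.11 ± 0.30 (SE), with limma adjusted p of 0.944 and 0.947.

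Without wild-type replicate 3, the direction turned for 4 of the 5 genes that could still be tested. The log2 fold change was then 0.42 ± 0.31 (SE) for Tpsb2, 0.27 ± 0.30 for Cma1, 0.24 ± 0.27 for Tpsab1 and 0.11 ± 0.20 for Cpa3, and it stayed negative for Hdc, at -0.56 ± 0.44. None passed (limma adjusted p = 0.997 for each), where 0.0742% of 12133 genes were called, and 53.4% had a higher mean in the knockout. Knockout replicate 1 was above both remaining wild-type libraries for those 4 genes, while in knockout replicate 2 Cma1, Tpsab1 and Hdc were below both remaining wild-type libraries and Tpsb2 and Cpa3 lay between them.

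**Figure D5:**
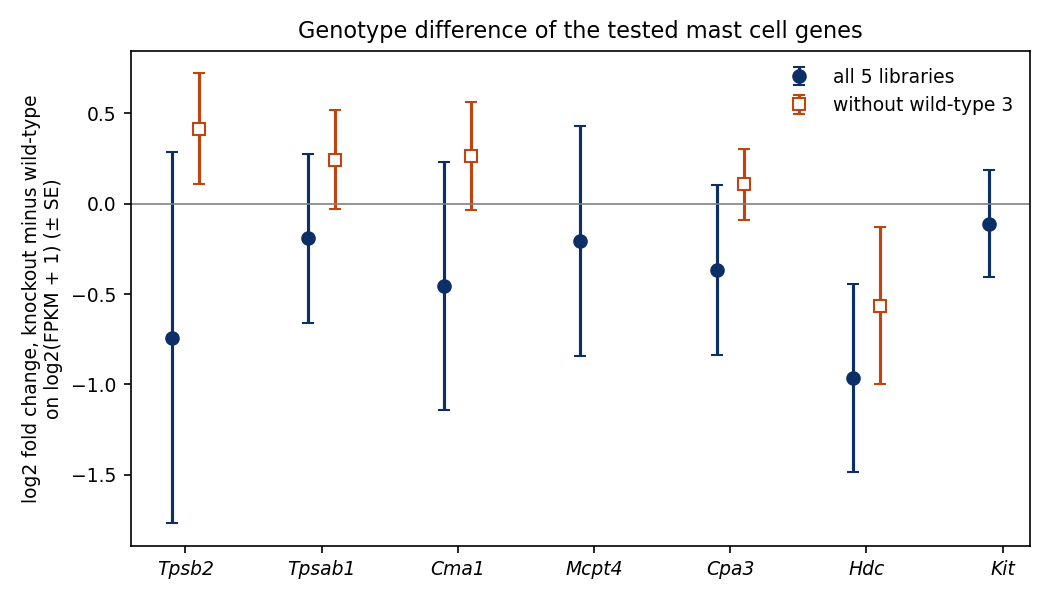
Log2 fold change, knockout minus wild-type on log2(FPKM + 1), of the 7 tested mast cell genes with standard error, from all 5 libraries (filled circles) and without wild-type replicate 3 (open squares, for the 5 genes that then pass the filter). The circles run from -0.96 for Hdc to -0.11 for Kit, and the squares of Tpsb2, Tpsab1, Cma1 and Cpa3 lie above 0.

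Other mast cell genes with low levels in macrophages were in part highest in wild-type replicate 3 as well. The genes of this paragraph were named after their values were seen. Tpsg1, a membrane-bound tryptase, was listed at 0 in wild-type replicate 1 and was 0.0909 and 0.727 FPKM in wild-type replicates 2 and 3, then 0.179 and 0.117 FPKM across the knockouts. Tph1, which starts serotonin synthesis, was 0.844, 0.859 and 2.44 FPKM across wild-type and 1.16 and 0.919 FPKM across knockout libraries. Both were highest in wild-type replicate 3 and second in knockout replicate 1, the order of the proteases. Il1rl1, the interleukin-33 receptor, was 0.444, 1.14 and 2.10 FPKM across wild-type and 1.04 and 1.09 FPKM across knockout libraries. Slc18a2, the transporter that loads amines into granules, was lowest in wild-type replicate 3, with 0.196, 0.199 and 0.167 FPKM in wild-type and 0.316 and 0.186 FPKM in knockout. Enpp3, a mast cell surface gene, was lowest there too, at 0.0533 FPKM against 0.0937 to 0.147 in the other libraries. Mrgprb2, the mast cell receptor for cationic peptides and drugs, ranged over 0.0848 to 0.153 FPKM among wild-type and 0.0498 to 0.0620 FPKM among knockout libraries. Its groups did not overlap, as for 20.8% of tested genes, and it was itself too low to be tested.

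Further granule genes numbered 12, of which 3 (Mcpt2 and Mcpt9, of mucosal or uterine mast cells, and Prg2) were listed at 0 in every library and 3 of the other 9 were highest in wild-type replicate 3. Beside this count and those of the lists that follow, that library was the highest for 21.4% of all tested genes. Of the 4 tested, 2 had a positive and 2 a negative fold change, the median was -0.02, and 0 passed limma, adjusted or at an unadjusted p under 0.05. The same 0 at an unadjusted p held for the mast cell lists that follow. Their leading genes are shared with macrophages. Srgn, the proteoglycan core that packs granule proteases, ranged over 199.9 to 274 FPKM among wild-type libraries and was 187 FPKM in each knockout library. Ctsc, which activates chymases, stood at 154 to 290 FPKM, Ndst2, which sulfates heparin, at 11.8 to 20.5, and Serpinb1a at 6.26 to 15.2.

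Amine and lipid mediator genes gave 0 called of 8 tested, 5 of them positive, with a median of 0.12, and 3 of 10 were highest in wild-type replicate 3. Alox5ap, which presents arachidonate to 5-lipoxygenase, was 512, 439 and 831 FPKM across wild-type and 496 and 515 FPKM across knockout libraries. Alox5, Ptgs1 and Ltc4s, which make leukotrienes and prostaglandins, ranged over 27.2 to 51.7, 19.8 to 39.9 and 17.3 to 32.8 FPKM. Surface receptor genes gave 0 called of 7 tested, 2 of them positive, with a median of -0.12, and 5 of 12 were highest in wild-type replicate 3. Fcer1g, the gamma chain that the IgE receptor shares with macrophage Fc receptors, stood at 904 to 1069 FPKM. Cd63, a granule membrane protein, stood at 446 to 587 FPKM and Csf2rb, the beta chain of the interleukin-3 receptor, at 55.8 to 89.6. Il3ra, its alpha chain, was 44.7, 40.5 and 93.6 FPKM across wild-type and 36.8 and 34.8 across knockout libraries, highest in wild-type replicate 3 and without overlap of the groups. Csf2rb did not overlap either, in the other direction, with 55.8 to 69.8 FPKM in wild-type and 87.2 to 89.6 in knockout. Cd63 was lower in the knockout without overlap. Over all tested genes the groups did not overlap for 20.8%.

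IgE receptor and KIT signalling genes gave 0 called of 16 tested, 11 of them positive, with a median of 0.12, and 2 of 18 were highest in wild-type replicate 3. Inpp5d, the lipid phosphatase SHIP1 that restrains this signalling, stood at 89.5 to 174 FPKM and the adaptor Lat2 at 48.1 to 71.9, both lowest in wild-type replicate 3. The kinase genes Syk and Lyn were lowest there too, at 61.8 and 24.8 FPKM against 87.2 to 115 and 52.0 to 65.1 in the other libraries. Kitl, the KIT ligand, was 3.50, 3.53 and 1.13 FPKM across wild-type and 3.84 and 3.74 FPKM across knockout libraries. Transcription factor genes gave 0 called of 9 tested, 5 of them positive, with a median of 0.37, and 1 of 11 was highest in wild-type replicate 3. Spi1 (PU.1) stood at 404 to 480 FPKM, Lmo2 at 41.0 to 94.5 and Lyl1 at 40.6 to 51.9. Mitf, the mast cell and melanocyte regulator that macrophages express as well, was lowest there, at 8.92 FPKM against 25.7 to 35.1. Low levels in wild-type replicate 3 were not particular to these genes. Its median log2 difference from the mean of the other libraries was -0.30 over all tested genes. The share of tested genes lowest there was not computed. Of 8 cytokine genes Tnf alone was tested, with a log2 fold change of 0.40 that did not pass and its lowest level, 7.24 FPKM, in wild-type replicate 3. Il4, Csf2 and Il13 were at most 0.278 FPKM, and Il3, Il9 and Ccl1 were listed at 0 in every library.

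By pattern over the 5 libraries, the gene most like the summed mast cell level was Ptgis, prostacyclin synthase, with 22.2, 29.4 and 108 FPKM across wild-type and 30.8 and 18.3 FPKM across knockout libraries. Likeness is the root mean square difference between log2(FPKM + 1) profiles after centring, and was 0.32 for Ptgis. The search covered 6984 tested genes with a mean of at least 5 FPKM. It left out the mast cell genes and, by name pattern, predicted models and small RNAs. That pattern also removed every symbol starting with Rn. The next were Pou2f2 (0.44), Lrg1 (0.46), the MHC class II gene H2-Eb1 (0.47), Tgfbi (0.50), Ddx49 (0.53), H2-Ab1 (0.55) and the complement gene C1qc (0.56). Each was highest in wild-type replicate 3, by 2.36 to 3.58 times the next library. The genes were chosen for likeness to a sum that was highest in that library, so a peak there follows from the choice. H2-Eb1 was in a displaced row that was put back in order. Among the mast cell genes themselves Tpsb2 (0.21) and Cma1 (0.30) were closest to the sum. Tpsb2 made up 48.1% to 75.0% of that sum across libraries, so its closeness follows in part from its share. The pattern to which other genes were likened is thus largely that of Tpsb2.

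Markers of other cells that could share a peritoneal culture were read beside the mast cell genes. Basophils also express Hdc, Fcer1a and Ms4a2, and their defining protease gene Mcpt8 was listed at 0 in wild-type replicate 1 and both knockout libraries and at 0.0342 and 0.0372 FPKM in wild-type replicates 2 and 3. Prss34, the other basophil protease, stood at 0.0231 to 0.0461 FPKM in 4 libraries and at 0.348 FPKM in wild-type replicate 3. Of the 7 basophil genes 4 were highest in wild-type replicate 3, which was the highest library for 21.4% of all tested genes. Ccr3 was lowest there, at 0.126 FPKM against 0.308 to 0.560 in the other libraries. Il4 was highest in the knockouts, at 0.188 and 0.278 FPKM, and Cd200r3 in wild-type replicate 2, at 0.768 FPKM. The summed level of the basophil genes was 41.9 to 94.7 FPKM in wild-type and 36.2 to 37.7 in knockout, most of it from Il3ra. Of the 8 eosinophil genes, Epx and Prg2 were listed at 0 in every library, and 4 of the other 6 were highest in wild-type replicate 3, while the sum was 1.43 to 1.88 FPKM in wild-type and 0.908 to 1.40 in knockout. Progenitor genes, which share Kit and Gata2 expression, summed to 1.00 to 2.33 FPKM in wild-type and 2.54 to 3.05 in knockout. Most of that sum came from Prtn3, at 0.830 to 1.95 FPKM in wild-type and 2.00 to 2.48 in knockout. The groups did not overlap for Prtn3, as for 20.8% of tested genes. Of those 7 genes 2 were highest in wild-type replicate 3, among them Cd34 at 0.242 FPKM against 0.0503 to 0.110 in the other libraries. Mpo, Elane, Prtn3 and Ctsg were instead highest in a knockout library. Elane was listed at 0 in all 3 wild-type libraries and at 0.251 and 0.270 FPKM in the knockouts.

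In the remaining marker lists, wild-type replicate 3 was the highest library for 4 of 8 B cell genes, 1 of 6 T and NK cell genes with a value, 2 of 5 neutrophil genes, 0 of 6 dendritic cell genes, 1 of 6 ILC2 genes, 3 of 11 mesothelial and fibroblast genes, 0 of 5 platelet genes, 1 of 6 erythroid genes and 3 of 10 macrophage genes. Its share over all tested genes was 21.4%. Outside the macrophage list most of these genes were too low to be tested, so many counts rest on values near 0. T and NK cell genes summed to 0.327 to 0.734 FPKM in wild-type and 0.441 to 0.456 in knockout, with Ncr1 and Prf1 listed at 0. B cell genes summed to 10.8 to 19.8 and 16.3 to 16.4 FPKM, neutrophil genes to 36.0 to 100.2 and 72.1 to 98.6 with Ly6g and Retnlg listed at 0, dendritic cell genes to 2.30 to 3.93 and 2.52 to 3.36, and ILC2 genes to 8.36 to 16.7 and 10.7 to 15.2. Single genes led several of these sums. Ighm led the B cell sum at 9.21 to 16.2 FPKM, and S100a8 and Mmp8 the neutrophil sum. Il7r led the ILC2 sum at 6.42 to 14.7 FPKM, while Gata3 was at most 0.0770 and Il13 at most 0.0408. Mesothelial and fibroblast genes summed to 13.4 to 33.0 FPKM in wild-type and 13.0 to 18.7 in knockout, with wild-type replicate 3 the lowest wild-type library. Platelet genes summed to 401 to 957 and 752 to 824 FPKM, and erythroid genes to 0.103 to 0.187 and 0.0907 to 0.382. Nearly all of the platelet sum was Pf4, at 399.95 to 956 FPKM. The other platelet genes were each at most 0.912 FPKM. Macrophage genes summed to 2605 to 3607 FPKM in wild-type and 2615 to 3062 in knockout, highest in wild-type replicate 3. The part of other cells in the mast cell gene levels was not tested.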

How the data were processed

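Messenger RNA purified from 1 µg of total RNA was sequenced on Ion Torrent, per the labels' protocols. Torrent Suite 4.4 and the Whole Transcriptome Analysis Plugin 4.2-r7 aligned reads to mm10 with TopHat2 and unmapped reads with Bowtie2, and Cufflinks gave FPKM, per the labels' protocols and the submitters' processing notes. The authors deposited FPKM without read counts, so the depth is unknown and no counting interval is given. Another 17 deposited columns of per-gene values were left unused.

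The 38757 rows are sorted by name with hyphens ignored, but the values of wild-type replicate 3 follow a sort that counts hyphens, so 2144 rows were displaced. Putting them back raised r with the other libraries from 0.171 to 0.916 over 722 expressed displaced rows. This reordering restored a deliberately misordered copy of another library. Left out were 27 rows named by a number and 50 whose names differ by case alone, and 165 symbols with several rows were summed.

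Knockout was compared with wild-type in all 5 libraries with limma 3.58.1 (R 4.3.3), fitted to log2(FPKM + 1) with a trended prior variance, and p-values were adjusted by Benjamini-Hochberg over all 12214 genes with at least 1 FPKM in at least 2 libraries, at a threshold of 0.05. Fold changes are on that scale and so are understated for low genes. The test was run on simulated data first. The mast cell genes, lists and tests were chosen with earlier results of these data known, so no test was adjusted over a list. Named beside the 10 genes were, by rule, up to 4 genes of highest mean and the genes at 0 of each other mast cell list, and the 8 genes of most like profile. Defining markers and summed levels were given for other cell types. The low mast cell genes Tpsg1, Tph1, Il1rl1, Slc18a2, Enpp3 and Mrgprb2, and Kitl, were named after their values were seen. So were several markers of other cell types beyond the defining ones. Transcripts, positions and lengths came from GENCODE M21 (GRCm38, the assembly that mm10 names), and 98.8% of tested genes had a length. Promoters came from RefSeq on GRCm38.p6. Alternatives were another pseudocount, filters, scalings, library weights, the row order as deposited, removal of displaced genes, a replicate block and leaving out each library. Scalings of the ratio of wild-type replicate 3 to the other libraries were added after seeing the data.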

Additional observations from a re-analysis of the deposited data

How the results depend on the processing

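None of the 97 fold changes of the 7 tested mast cell genes under 15 alternatives passed (smallest limma adjusted p 0.69), and 19 had the other sign. With library weights, which gave wild-type replicate 3 a weight of 0.128, the log2 fold change was 0.11 for Cpa3, 0.41 for Tpsb2, 0.15 for Tpsab1, 0.25 for Cma1, 0.36 for Mcpt4 and 0.075 for Kit. With the replicate block, in which wild-type replicate 3 has no partner, it was 0.11, 0.42, 0.24, 0.27, 0.41 and 0.13 in the same order. Leaving out 1 library gave -0.66 to 0.11 for Cpa3, -1.44 to 0.42 for Tpsb2, -0.56 to 0.24 for Tpsab1, -0.88 to 0.27 for Cma1, -0.54 to 0.39 for Mcpt4 and -0.26 to 0.044 for Kit. Without knockout replicate 2 the values of Tpsab1, Mcpt4 and Kit were 0.18, 0.39 and 0.044. Hdc kept a negative value under every alternative run. Kit and Mcpt4 fell under the filter without wild-type replicate 3 or knockout replicate 1.

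The number of genes called higher and lower was 5 and 2, and it was 3 and 2 with a pseudocount of 0.1, 1 and 0 with no filter, 1 and 1 with a filter at 5 FPKM, 12 and 9 with library weights, 2 and 1 in the row order as deposited and 3 and 1 with the replicate block. It ranged from 0 to 7 higher and 0 to 7 lower when 1 library was left out, with 0 and 0 by limma without knockout replicate 1 or 2, where the lone knockout library is assumed to vary like the wild-type ones and 36 and 34 or 41 and 26 had an unadjusted p under 0.05. The median fold change of the other granule genes was 0.48 in the row order as deposited. The deviations of same-numbered libraries had r = -0.04, over wild-type replicates 1 and 2. Deviations of 2 libraries from their own mean mirror each other, so both pairs give this same value. It cannot tell whether the numbers pair the libraries. Among the alternatives run, Nrp1 passed with library weights alone, at -1.43 (limma adjusted p = 0.023).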
